A study of Homo sapiens with 3 samples.

Results

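Integrins are cell surface receptors, each built from 1 alpha chain and 1 beta chain, that bind extracellular matrix and counter-receptors on other cells and connect them to the actin cytoskeleton. Which alpha chain pairs with which beta chain sets the ligand. In myeloma, a cancer of plasma cells, the ITGA4 chain with ITGB1 or ITGB7 is known for holding the cells to fibronectin and to VCAM1 on bone marrow stroma. ITGAE pairs with ITGB7 to bind E-cadherin, ITGAL pairs with ITGB2 to bind the ICAM proteins, and ITGA5, ITGA6 and ITGA8 pair with ITGB1 (ITGA6 also with ITGB4).

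The 10 integrin subunit genes described here are ITGA4, ITGA5, ITGA6, ITGA8, ITGAE, ITGAL, ITGAV, ITGB1, ITGB2 and ITGB7, taken by name. Every probe set that the platform annotation assigns to 1 of these symbols alone was used, which gave 26 of 54675 probe sets and 10 of 19775 named genes. A probe set is a group of short probes on the array that together measure 1 transcript region.

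All samples were KMS11 cells, a human multiple myeloma line with the t(4;14) translocation, which places the histone methyltransferase gene MMSET (current symbol NSD2) under immunoglobulin enhancers. The control group carried shLuc, a short hairpin RNA against luciferase, which human cells lack, and the other groups carried shMMSET#2 or shMMSET#4, hairpins against MMSET. Every group was infected with lentivirus in the presence of polybrene, put back in normal medium after 24 h and harvested for RNA at 48 h, and biotin-labelled RNA was hybridised to an Affymetrix expression array. There was 1 array per group and 1 cell line. The series title asks which genes depend on MMSET in such cells, and this design does not settle it. Differences are described here by size and by the agreement of the hairpins, with no test between replicates. That agreement is limited by the shLuc array, which both ratios share.

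The deposited values are MAS5 signals on a linear scale, already scaled to the same trimmed mean of 500.1 on each array. Signals under 41.2, the 40th percentile of all signals, were set to that floor, since MAS5 ratios of dim probe sets are noisy. Where 1 of the signals in a ratio sits at the floor, the ratio is a bound and carries "at least". A gene is represented by its brightest probe set and counts as tested if that probe set exceeded the array's median on at least 1 array, which held for 13296 genes. The members called lower or higher are those at least 1.5-fold from shLuc. Spread can be judged only by setting the hairpin arrays against each other. They differed by 1.28-fold for the median tested gene and by no more than 2.37-fold for 95% of them, and real differences between the hairpins are part of this. The targeted gene, NSD2, read 10300 (shLuc), 7032 (shMMSET#2) and 7476 (shMMSET#4) on its brightest probe set. Of its 6 probe sets, each was below shLuc with shMMSET#2 and 5 were below with shMMSET#4. Their median log2 ratio was -1.33 with shMMSET#2 and -0.48 with shMMSET#4, so NSD2 was reduced more with shMMSET#2 than its brightest probe set shows. The median probe set signal lay between 59.5 and 77.4 and was highest with shLuc, where 36.2% of probe sets were at or under the floor, against 41.2% with shMMSET#2 and 42.6% with shMMSET#4. For ACTB, the 3′ minus 5′ difference in log2 signal, a sign of RNA quality, was 1.70 with shLuc and 1.14 with each MMSET hairpin. It moves with the groups, and its part in the results was not tested. If the arrays are instead scaled to the same median signal, the tested genes' median log2 ratio shifts. It goes from -0.04 to 0.25 (shMMSET#2) and from -0.02 to 0.34 (shMMSET#4), a shift against which the ratios of the members are given. On the brightest NSD2 probe set the log2 ratios under that scaling were -0.23 with shMMSET#2 and -0.08 with shMMSET#4.

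All 10 plasma cell and myeloma markers were tested, which by itself does not show identity. On its brightest probe set, SDC1 read 4166, 3338 and 3646 on the shLuc, shMMSET#2 and shMMSET#4 arrays. Its other probe set had log2 ratios of -1.79 with shMMSET#2 and -0.77 with shMMSET#4. CD38 was dim, at 94.4, 129 and 151 in the same order of arrays. The plasma cell and myeloma list was lower with shMMSET#2, with sums of 151494, 102164 and 136427 in that order. With that hairpin 4 of the 10 were at least 1.5-fold lower and none was higher, beside 22.5% and 16.2% of all tested genes. The 4 were IRF4 (2.86-fold), PRDM1 (2.29-fold), XBP1 (1.88-fold) and TNFRSF17 (1.55-fold). With shMMSET#4 none was lower and 2 were higher, MZB1 (3.53-fold) and CD38 (1.60-fold), beside 20.6% and 17.3%. The part of this in the integrin results was not tested. Of the markers of other cell types, 2 of 4 for T cells were tested, 1 of 3 for mature B cells, 1 of 3 for myeloid cells, 1 of 3 for fibroblasts and 3 of 4 for epithelium. Summed over their lists, the T cell markers read 260, 146 and 134, the mature B cell markers 197, 116 and 98.0, the myeloid markers 174, 122 and 28.4, and the fibroblast markers 282, 371 and 222. Tested among these were COL1A1 of fibroblasts (197, 322 and 180) and CSF1R of myeloid cells (80.0 and 82.4, and at the floor with shMMSET#4). The tested CD22 of B cells read 131, 107 and 76.1, and CD3E of T cells 105, 78.2 and 76.4. CD3D of T cells read 91.3 with shLuc and was at the floor with both hairpins. CD14, CD3G, CD2, COL3A1 and KRT19 were at or under the floor on all arrays. The epithelial markers summed to 8530, 4762 and 11147, most of it EPCAM at 8099, 4391 and 10651, with KRT18 at 327, 248 and 350 and KRT8 at 99.8, 118 and 144.

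Among the 9 tested members, ITGA4, ITGA8 and ITGAE were at least 1.5-fold lower than shLuc with both hairpins, and ITGA6 and ITGAL were at least 1.5-fold higher with both. Of all tested genes, 11.9% were lower with both and 8.60% were higher with both. The 3 lower members are 33.3% of the 9 and the 2 higher members 22.2%, and both ratios of a gene share the same shLuc array. With shMMSET#4, ITGAV and ITGB1 were lower in addition, and ITGB7 and ITGA5 were higher, which gives 5 lower and 4 higher, against 20.6% of all tested genes lower and 17.3% higher. ITGA4 and ITGB1 fell inside 1.5-fold with that hairpin after scaling to the same median signal. With shMMSET#2, 3 members were lower and 2 higher, against 22.5% and 16.2% of all tested genes. ITGB2 was not tested, because none of its 3 probe sets exceeded the array median anywhere. ITGA5 passed only through its signal with shMMSET#4, its highest, so its place among the tested members carries a direction. In RNA from bulk cultures, fewer cells that express a gene and less RNA per cell cannot be told apart.

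**Figure D1:**
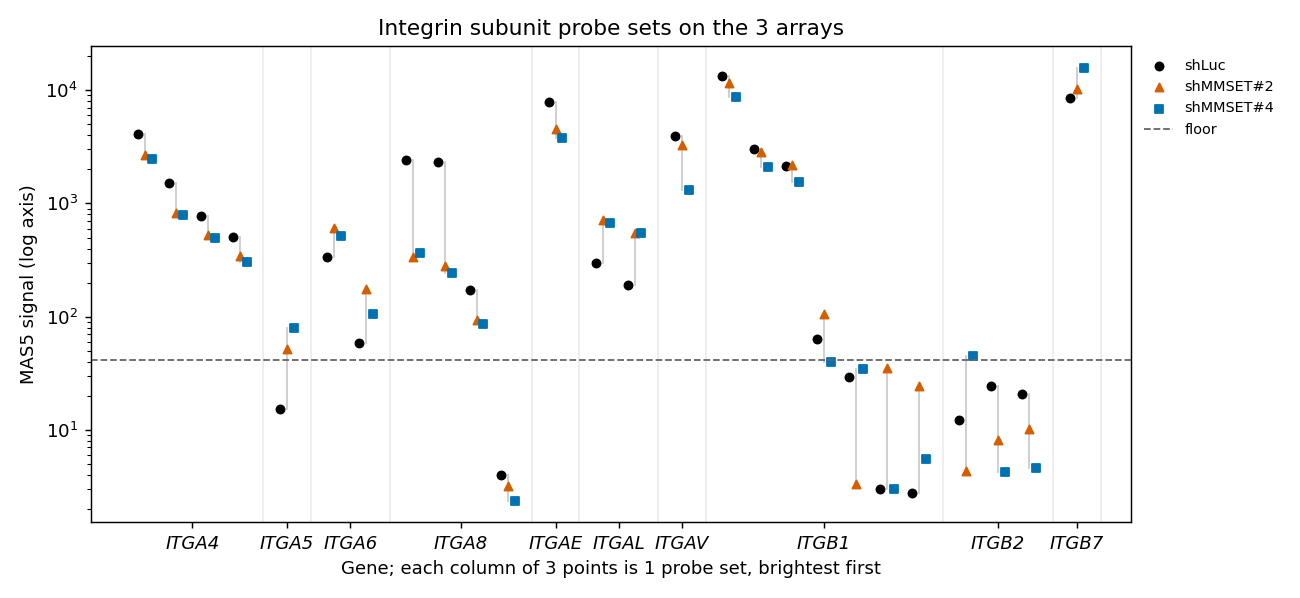
MAS5 signal (log axis) of all 26 integrin probe sets on the shLuc, shMMSET#2 and shMMSET#4 arrays, 1 point per array, grouped by gene with the brightest probe set first; the dashed line is the floor of 41.2. The black shLuc points of ITGA4, ITGA8 above the floor and ITGAE lie above both hairpins, and those of ITGA6 and ITGAL lie below both.

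ITGA8, the alpha chain of the nephronectin and fibronectin receptor, differed most. Its brightest probe set read 2415 in the shLuc cells, against 333 and 365 with shMMSET#2 and shMMSET#4, that is, 7.24-fold and 6.62-fold lower (log2 ratios -2.86 and -2.73). The hairpin arrays differed from each other by 1.09-fold on this probe set, while 95% of genes of similar brightness lay within 2.16-fold between these arrays. Of the 13296 tested genes, 26 had a lower ratio with shMMSET#2 and 12 had a lower ratio with shMMSET#4. The second ITGA8 probe set read 2308, 279 and 244, which is 8.27-fold and 9.46-fold lower. A dimmer one read 171, 93.0 and 85.9, or 1.84-fold and 2.00-fold lower, and the last was under the floor on all arrays. The 3 measurable probe sets therefore placed ITGA8 lower with both hairpins, and differed in size. Scaled to the same median signal, the brightest had log2 ratios of -2.54 and -2.35.

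The tested genes whose 2 log2 ratios were nearest to those of ITGA8, by Euclidean distance on 3 arrays after flooring, were SAMSN1, OTOGL, CREB5, MYRFL and SLC15A2. Only OTOGL (distance 0.31) and MYRFL (0.52) were above the floor on all arrays, so the distances and the place of the other 3 depend on the floor and are not given. SAMSN1, an adaptor protein gene of haematopoietic cells, read 319 with shLuc and 51.0 with shMMSET#4, and was at the floor with shMMSET#2. CREB5, a transcription factor gene, read 351 with shLuc and was at the floor with both hairpins, and SLC15A2 was at the floor with shMMSET#4. Apart from OTOGL, these genes passed the filter only through their shLuc signals, their highest, so their place among the tested genes carries a direction. The likeness rests on 1 array per condition.

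ITGA4, the alpha chain through which myeloma cells bind VCAM1 and fibronectin, was modestly lower on all 4 of its probe sets. The brightest read 4101 with shLuc, 2672 with shMMSET#2 and 2484 with shMMSET#4, or 1.53-fold and 1.65-fold lower. The next read 1523, 818 and 795, or 1.86-fold and 1.92-fold lower. The shLuc array was the highest of the 3 on every ITGA4 probe set, and the hairpin arrays lay close together. The other probe sets read 768, 524 and 492, and 510, 346 and 305. All of these differences were smaller than the 1.99-fold within which 95% of genes as bright as the first probe set lay between the hairpin arrays. After scaling to the same median signal the log2 ratios of the brightest probe set were -0.30 and -0.34, short of 1.5-fold.

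ITGAE, also called CD103, is the alpha chain that marks lymphocytes resident in epithelium. Its probe set read 7912 in the shLuc cells, against 4560 and 3760 with shMMSET#2 and shMMSET#4. Against shLuc it was lower by 1.74-fold and 2.10-fold, and 95% of genes in its brightness class lay within 1.85-fold between the hairpin arrays, so that the second difference exceeds this spread and the first does not. With the arrays scaled to the same median signal the log2 ratios were -0.48 and -0.69, and ITGAE was past 1.5-fold with shMMSET#4 and not with shMMSET#2.

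The stretches of 250 bases before the annotated start of these 3 genes are shown because they were lower together, and that of ITGB7 because its gene, the partner chain of ITGA4 and ITGAE, was not lower. They come from RefSeq on GRCh38.p14, which held such stretches for 8 of the 10 members, and are printed 5′ to 3′ on the strand of the gene. Capitals mark CCACCC (or its reverse complement), the CACCC box bound by Krueppel-like factors, and TGCTGA, a core of the MAF recognition element.
ITGA8, chr10:15719923-15720172, minus strand: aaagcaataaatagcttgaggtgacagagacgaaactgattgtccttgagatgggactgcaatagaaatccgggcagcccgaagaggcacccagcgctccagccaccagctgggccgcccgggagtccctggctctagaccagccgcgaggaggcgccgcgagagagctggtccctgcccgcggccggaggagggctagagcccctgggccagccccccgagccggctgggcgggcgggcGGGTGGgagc
ITGA4, chr2:181457136-181457385, plus strand: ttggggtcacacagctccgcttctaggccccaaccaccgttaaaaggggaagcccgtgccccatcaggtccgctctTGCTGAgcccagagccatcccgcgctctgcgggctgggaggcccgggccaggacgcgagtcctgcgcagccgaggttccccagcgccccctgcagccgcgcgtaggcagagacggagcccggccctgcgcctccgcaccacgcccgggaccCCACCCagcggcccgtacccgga
ITGAE, chr17:3801189-3801438, minus strand: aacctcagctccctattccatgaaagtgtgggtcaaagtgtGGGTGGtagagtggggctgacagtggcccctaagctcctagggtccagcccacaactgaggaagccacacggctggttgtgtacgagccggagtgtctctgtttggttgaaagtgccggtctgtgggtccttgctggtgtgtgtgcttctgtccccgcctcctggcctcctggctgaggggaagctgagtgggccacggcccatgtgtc
ITGB7, chr12:53207252-53207501, minus strand: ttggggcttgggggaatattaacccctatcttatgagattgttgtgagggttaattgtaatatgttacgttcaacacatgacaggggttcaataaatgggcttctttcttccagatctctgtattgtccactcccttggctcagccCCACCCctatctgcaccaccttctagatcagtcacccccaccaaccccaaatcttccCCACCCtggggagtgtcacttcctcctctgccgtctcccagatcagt

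Searched on both strands, CCACCC stood in 7 of the 11 member stretches (some genes have more than 1 start) and in 31.3% of all 35116 stretches. It was present in each of the 4 shown here, the ITGB7 stretch included, so it does not separate the lower members from ITGB7. TGCTGA stood in the ITGA4 stretch alone among the members and in 14.0% of all. TGANTCA, the AP-1 motif, stood in none of the 11 and in 6.57% of all. The median GC content was 68.0% in the member stretches and 58.0% in all. These are matches of letters within this window and not binding sites.

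ITGAV, the alpha chain of the vitronectin receptors, was lower with shMMSET#4 and close to shLuc with shMMSET#2. Its probe set read 3910 with shLuc, 3263 with shMMSET#2 and 1322 with shMMSET#4. The shMMSET#4 signal was 2.96-fold lower than shLuc and 2.47-fold lower than shMMSET#2, outside the 1.99-fold spread of its brightness class, and 2.04% of tested genes had a lower ratio with this hairpin. The 1.20-fold difference with shMMSET#2 turned positive after scaling to the same median signal (log2 ratio 0.06), whereas the ratio with shMMSET#4 was -1.18. ITGB8, a beta chain outside the member list that pairs with ITGAV alone, had the same order of arrays, with signals of 5950, 3962 and 1245 on its brightest probe set. Its log2 ratios were -0.59 with shMMSET#2 and -2.26 with shMMSET#4 (4.78-fold lower), and 4 of its 5 probe sets were lower than shLuc with each hairpin. ITGB5, another partner of ITGAV, read 1632, 1562 and 1685 on its brightest probe set, or 1.04-fold lower and 1.03-fold higher. Among its other tested probe sets, the lowest log2 ratios were -0.84 (shMMSET#2) and -0.63 (shMMSET#4), both past 1.5-fold. The highest there were 0.10 and -0.01, in the same order. ITGB5 probe sets thus differed in size, and whether ITGB5 was unchanged is not settled.

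ITGAL, the alpha chain of the leukocyte receptor for ICAM proteins, had the highest ratios with both hairpins among the members measured above the floor on all arrays. Its brightest probe set read 298 with shLuc, 720 with shMMSET#2 and 678 with shMMSET#4, or 2.42-fold and 2.28-fold higher. The other probe set read 191, 551 and 548, or 2.89-fold and 2.87-fold higher. The hairpin arrays lay together and above shLuc on both probe sets. In the brightness class of the first, 95% of genes lay within 2.29-fold between the hairpin arrays, so that it exceeds this spread with shMMSET#2 and falls just short of it with shMMSET#4. Of all tested genes, 97.1% and 95.7% had lower ratios. ITGB2, its obligate beta partner, read 12.1 with shLuc, 4.33 with shMMSET#2 and 45.1 with shMMSET#4 on its brightest probe set, and both others were under the floor on all arrays. No fold is given for ITGB2, because 8 of its 9 signals were at or under the floor.

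ITGA6, a laminin receptor chain, was higher with both hairpins on both of its probe sets. The brighter read 334 with shLuc, 612 with shMMSET#2 and 512 with shMMSET#4, or 1.83-fold and 1.53-fold higher. The dimmer read 58.5, 175 and 105, or 2.99-fold and 1.80-fold higher. The shMMSET#2 array was the highest of the 3 on each. The folds of the brighter probe set were inside the 2.36-fold spread of its brightness class, and after scaling to the same median signal it was still past 1.5-fold with both (log2 ratio 1.19 with shMMSET#2).

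ITGA5, the fibronectin receptor chain that recognises the RGD sequence, was close to the floor. Its only probe set read 15.1 with shLuc, 51.4 with shMMSET#2 and 78.7 with shMMSET#4. This puts it higher by at least 1.25-fold and at least 1.91-fold. As lower bounds, these cannot be placed inside or outside the 2.28-fold spread among the dimmest tested genes.

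ITGB1 is the common beta chain of most matrix receptors and the partner of 5 of the alpha chains here. Its brightest probe set read 13467 with shLuc, 11617 with shMMSET#2 and 8692 with shMMSET#4, or 1.16-fold and 1.55-fold lower. The next probe sets read 3025, 2875 and 2097, and 2135, 2205 and 1559. On these 3 probe sets the shMMSET#4 array was the lowest, by 1.37-fold to 1.55-fold against shLuc, and shMMSET#2 was within 1.16-fold of shLuc. Another, dim probe set read 63.1 and 107 with shLuc and shMMSET#2 and was at the floor with shMMSET#4, and the other 3 were under the floor on all arrays. The differences were inside the 1.85-fold spread of the brightest genes, and the log2 ratios of the brightest probe set became 0.11 and -0.25 after scaling to the same median signal.

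ITGB7, the beta chain shared by the gut-homing and E-cadherin receptors, was higher than shLuc with shMMSET#4. It read 8574 with shLuc, 10335 with shMMSET#2 and 15851 with shMMSET#4 on its only probe set, or 1.21-fold and 1.85-fold higher. Both folds were within the 1.85-fold spread of its brightness class, and ITGB7 was 1.53-fold higher with shMMSET#4 than with shMMSET#2. With the arrays scaled to the same median signal its log2 ratios became 0.59 and 1.27, and ITGB7 joined ITGA6 and ITGAL as higher with both hairpins. MAF, a transcription factor known to activate ITGB7 in myeloma, read 15208, 5213 and 14083 on its brightest probe set. On that probe set MAF was lower by 2.92-fold with shMMSET#2 and by 1.08-fold with shMMSET#4. Over its 6 probe sets the median log2 ratios were -1.19 with shMMSET#2 and -0.41 with shMMSET#4. Any relation of MAF to ITGB7 in these cells was not tested.

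Set side by side as receptor pairs, the alpha and beta chains did not share a direction throughout. For the E-cadherin receptor, ITGAE had log2 ratios of -0.80 with shMMSET#2 and -1.07 with shMMSET#4, and ITGB7 had 0.27 and 0.89. For the VCAM1 and fibronectin receptor, ITGA4 had -0.62 and -0.72 and ITGB1 had -0.21 and -0.63. For the nephronectin receptor, ITGA8 had -2.86 and -2.73, so its ratio was far below that of ITGB1. ITGAV (-0.26 and -1.56) and ITGB8 (-0.59 and -2.26) were both lowest with shMMSET#4. Levels of different genes are not compared here, since probe sets differ in brightness for reasons of their sequence.

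**Figure D2:**
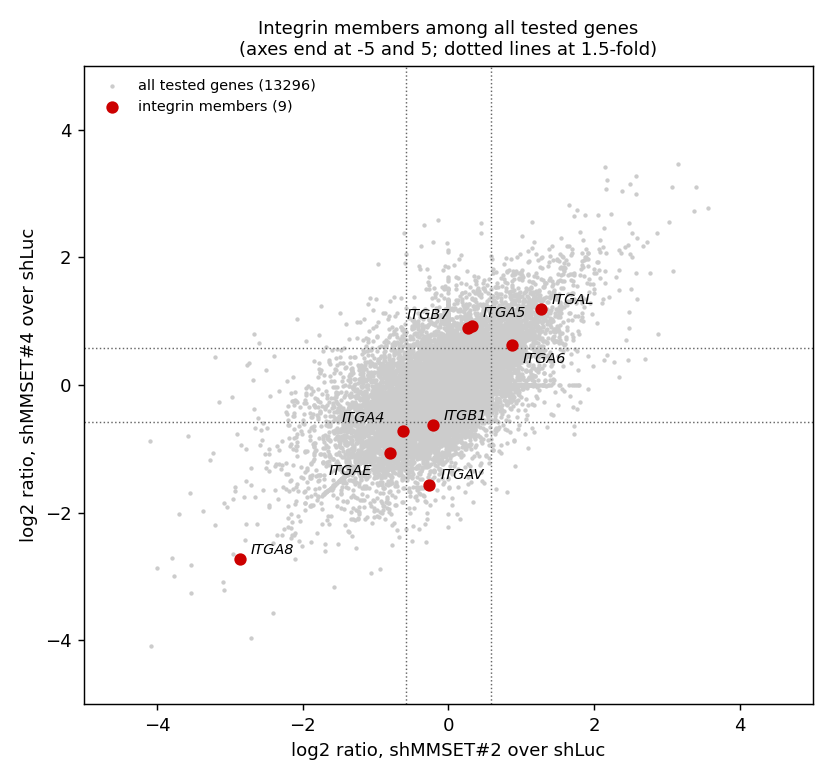
log2 ratio over shLuc with shMMSET#2 (horizontal) and shMMSET#4 (vertical) for the 13296 tested genes in grey and the 9 tested integrin members in red; dotted lines mark 1.5-fold and the axes end 5 log2 units from 0. ITGA8 lies at -2.86 and -2.73, ITGAL at 1.27 and 1.19, and ITGAV at -0.26 and -1.56. Both ratios share the shLuc array.

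Directly between the hairpins, ITGAV was at least 1.5-fold lower with shMMSET#4 than with shMMSET#2, and ITGB7 was 1.53-fold higher, against 13.6% and 16.9% of all tested genes. ITGA5 was 1.53-fold higher too, but it was tested only because of its shMMSET#4 signal. The other 6 tested members were within 1.34-fold of each other on the hairpin arrays. The median log2 ratio of the 9 tested members was -0.21 with shMMSET#2 and -0.63 with shMMSET#4, with ranges from -2.86 to 1.27 and from -2.73 to 1.19, beside medians of -0.04 and -0.02 over all tested genes. The sign of the first median depends on the scaling, as it was 0.11 after scaling to the same median signal. On probe sets, 6 of 19 tested integrin probe sets were lower with both hairpins (13.2% of all tested probe sets) and 4 were higher with both (8.17%).

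Scaling changed which members were called. With the arrays scaled to the same median signal, 1 member (ITGA8) was lower with both hairpins and 3 (ITGA6, ITGAL and ITGB7) were higher, against 5.28% and 19.7% of all tested genes. Taken singly under this scaling, shMMSET#2 gave 1 lower member and 3 higher, beside 13.2% and 30.1% of all tested genes, and shMMSET#4 gave 3 lower (ITGA8, ITGAE and ITGAV) and 4 higher (ITGA5, ITGA6, ITGAL and ITGB7), beside 10.1% and 34.7%. After quantile normalization the calls were those of the deposited scaling, 3 lower and 2 higher, against 8.84% and 10.8%.

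**Figure D3:**
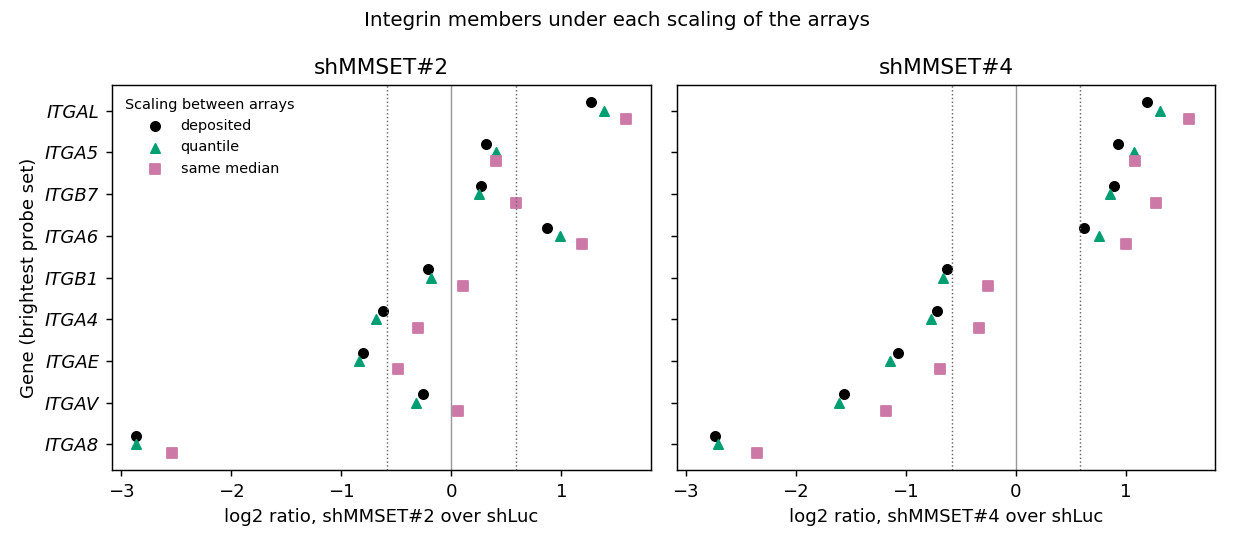
log2 ratio over shLuc of the 9 tested integrin members with shMMSET#2 (left) and shMMSET#4 (right), under the deposited scaling, quantile normalization and scaling to the same median signal; dotted lines mark 1.5-fold. ITGA8 stays below -2.3 and ITGAL above 1.1 under each, while ITGA4 lies inside the lines under the scaling to the same median signal, at -0.30 and -0.34.

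Of the 16 other integrin subunit genes, 15 had a probe set of their own and 9 were tested. ITGB8 was the only one of these 9 lower with both hairpins in the deposited scaling and after quantile normalization, none was after scaling to the same median signal, and none was higher with both under any of these. Of all tested genes, 11.9%, 8.84% and 5.28% were lower with both under these scalings, in this order, and 8.60%, 10.8% and 19.7% were higher. ITGA10, a collagen receptor chain, read 121 with shLuc, 81.6 with shMMSET#2 and 69.8 with shMMSET#4. ITGA3, a laminin receptor chain, read 121, 127 and 111, and ITGB3, a beta chain of platelets, 64.7, 74.1 and 54.2. ITGA2B read 71.9, 55.6 and 66.5, and ITGAM 75.4, 67.8 and 60.2. These probe sets were dim, and the signals of ITGA7 (26.8, 118 and 34.9) and ITGAD (11.8, 16.1 and 66.9) exceeded it on 1 array each. The median log2 ratios of the 9 were -0.06 with shMMSET#2 and -0.12 with shMMSET#4.

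Of 34 genes that activate integrins or link them to actin, 29 were tested. With both hairpins 2 of these were lower and 2 higher, which leaves 25 that were neither, beside the 11.9% lower and 8.60% higher among all tested genes. The lower ones were APBB1IP and PARVG. APBB1IP, the adaptor that brings talin to integrins, read 1118, 190 and 615 (5.89-fold and 1.82-fold lower). PARVG, a parvin of blood cells, read 111 with shLuc and 50.6 with shMMSET#4 and was at the floor with shMMSET#2. It passed the filter only through its shLuc signal, its highest, so its place among the tested genes carries a direction. The higher ones were CIB1, which binds integrin tails (1191, 2518 and 2820, or 2.11-fold and 2.37-fold higher), and SHARPIN, an inhibitor of integrin activation (104, 178 and 241). TLN1, the talin gene, which is outside the naming rule as is RAP1A, read 334, 376 and 283 on its brightest probe set, within 1.18-fold of shLuc. Its other tested probe set had log2 ratios of -0.69 and -0.33, so the direction with shMMSET#2 differed between probe sets. FERMT3, the kindlin of blood cells, was 2.40-fold and 1.49-fold higher, and VCL, which encodes vinculin, was 1.47-fold and 2.48-fold lower; both are named after their values were seen. Scaling to the same median signal left 1 lower (PARVG) and made 4 higher (CIB1, FERMT3, LYN and SHARPIN), beside 5.28% and 19.7% of all tested genes. Quantile normalization gave 3 lower (APBB1IP, PARVG and VCL) and 3 higher (CIB1, FERMT3 and SHARPIN), beside 8.84% and 10.8%. RAP1A, a small GTPase, had a signal of 38422 with shMMSET#4 on its brightest probe set and under 10 on the other arrays, whereas another of its probe sets read 1286, 2116 and 2425.

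Of 26 ligand and partner genes, 21 were tested. With both hairpins 7 of these were lower and none higher, and 14 were neither, beside 11.9% and 8.60% of all tested genes. Taken singly, shMMSET#2 gave 10 lower and 2 higher, beside 22.5% and 16.2% of all tested genes. shMMSET#4 gave 7 lower, the same 7 as with both, and 4 higher, beside 20.6% and 17.3%. FN1, which encodes fibronectin, the ligand of the ITGA4, ITGA5 and ITGA8 receptors, read 5826, 2241 and 1904 on its brightest probe set, or 2.60-fold and 3.06-fold lower. Its 3 other bright probe sets read 4655, 2467 and 1795, then 4993, 1745 and 1575, and 4732, 1905 and 1401. The shLuc array was the highest on all 4 of them. A dim FN1 probe set read 56.2, 52.2 and 72.5, highest with shMMSET#4, and the rest were not tested. CDH1, which encodes E-cadherin, the ligand of the ITGAE and ITGB7 receptor, read 595 with shLuc and 340 with shMMSET#4, and was lower by 11.9-fold with shMMSET#2 and by 1.75-fold with shMMSET#4. NPNT, which encodes nephronectin, the ligand of the ITGA8 receptor, read 179 with shLuc and 101 with shMMSET#4 and was at the floor with shMMSET#2, so it was at least 4.33-fold and 1.78-fold lower. MADCAM1, the gut ligand of ITGA4 with ITGB7, read 128, 71.3 and 52.1. ICAM4 and SPP1 read 96.7 and 78.0 with shLuc and were at the floor with both hairpins. These 2 passed the filter only through their shLuc signals, their highest, so their place among the tested genes carries a direction. ICAM1, named after its values were seen, read 2717, 1270 and 1670, or 2.14-fold and 1.63-fold lower. VCAM1 was not tested, with 43.6 with shLuc and floor signals with the hairpins. Scaling to the same median signal left 3 lower with both (FN1, ICAM4 and SPP1) and made 2 higher (CD151 and CD82), beside 5.28% and 19.7%. Quantile normalization left 5 lower and made the same 2 higher, beside 8.84% and 10.8% of all tested genes.

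**Figure D4:**
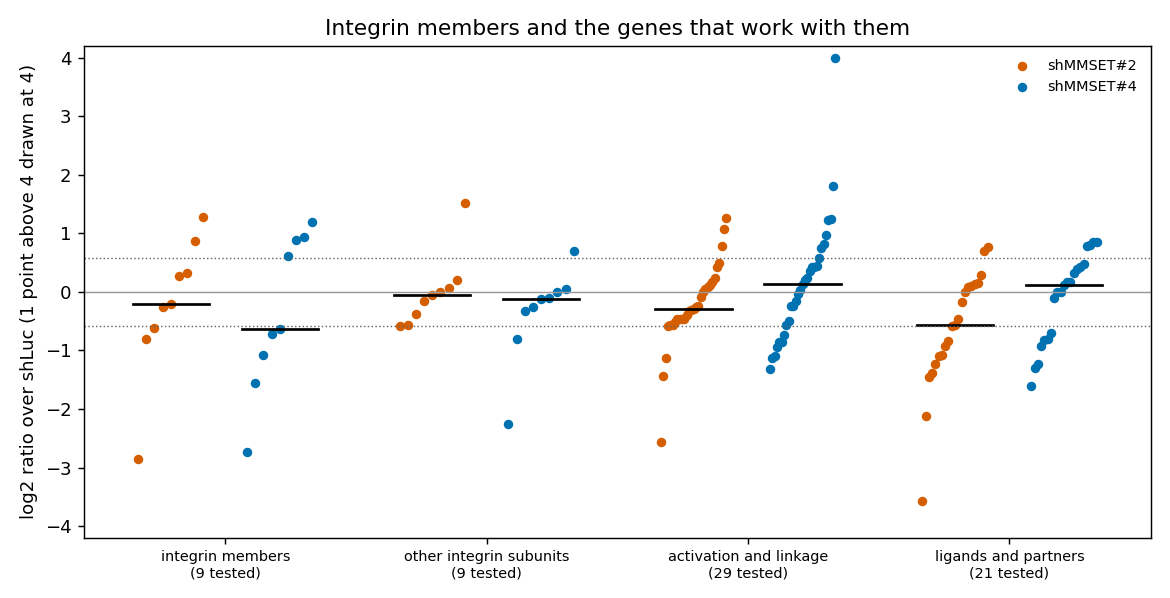
log2 ratio over shLuc with shMMSET#2 and shMMSET#4 for each tested gene of 4 lists, sorted within a list, with a black bar at the list's median; dotted lines mark 1.5-fold, genes with both signals at the floor are drawn at 0, and 1 point above 4 (RAP1A) is drawn at 4. The medians of the 21 ligands and partners are -0.56 with shMMSET#2 and 0.12 with shMMSET#4, and those of the 29 activation and linkage genes are -0.29 and 0.14.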

How the data were processed

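The authors deposited intensity values, 1 linear MAS5 signal per probe set and array. The submitters' processing notes name MAS5, the design text adds GeneSpring, and neither version nor settings are given in the sources used here. Although the design text speaks of the U133 A chip, the identifiers are those of HG-U133 Plus 2.0, whose annotation was used. It gave 41091 probe sets a single symbol, updated through RefSeq (GRCh38.p14). Another 1801 carry several symbols and 11721 none, and these were left out with the 62 controls.

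Signals were not rescaled, floored at the 40th percentile (41.2) and log2-transformed. Genes and probe sets were kept if above the array's median on at least 1 array, and called at 1.5-fold. With 1 array per group there was no test and no p-value, and the number of arrays sets the precision. The steps were tested on simulated data. The genes named are all members, NSD2, MAF, tested genes of 3 integrin lists past 1.5-fold with both hairpins (up to 6 per list), tested integrin subunits, and the 5 genes nearest to the leading member. Outside this rule, TLN1, FERMT3, VCL, RAP1A, LYN, CD151, CD82, ICAM1, VCAM1, the cell type markers and the integrin-neighbouring transcripts were named after their values were seen. The members and lists were chosen with earlier results of these data known. The closing section gives the 10 alternatives tried. The software was Python 3.11.15 with pandas 2.3.3, numpy 2.4.6, matplotlib 3.10.9 and scipy 1.17.1.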

Additional observations from a re-analysis of the deposited data

How the results depend on the processing

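Under scaling to the same median signal, the median log2 ratio of the members was 0.11 with shMMSET#2 and -0.25 with shMMSET#4, and 1 member gene and 2 member probe sets were lower with both hairpins. That scaling raises all ratios by construction. When a gene's probe sets were averaged, the median with shMMSET#2 was 0.07, and ITGA8 had log2 ratios of -1.70 and -1.74, because the average takes in dimmer probe sets, 1 of them at the floor. Without the filter on dim probe sets, which adds ITGB2, the median with shMMSET#4 was -0.25. Leaving out _x_at and _s_at probe sets, 2 member probe sets were higher with both hairpins, since fewer were counted. At a 2-fold threshold 1 member gene and 2 member probe sets were lower with both and 1 gene and 2 probe sets were higher, and at 3-fold 1 gene and 2 probe sets were lower and 0 of either were higher. ITGA8 was lower with both and ITGA6 and ITGAL higher with both under all 8 alternatives of scaling, floor, filter and probe set; ITGA4 and ITGAE were lower with both under 7 of the 8. No called log2 ratio of a single member changed sign. No paired analysis was possible because each group holds 1 array. The dim signals of ITGA5 and ITGB2 limit what can be said of them: with no floor, the ITGA5 log2 ratios were 1.76 and 2.38.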

Other observations

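Transcripts that neighbour integrin genes were measured too. ITGB1-DT, a noncoding transcript named for its divergent position to ITGB1, read 120 with shLuc and 67.4 with shMMSET#2 and was at the floor with shMMSET#4, so that it was 1.78-fold and at least 2.92-fold lower. ITGB8-AS1, named as antisense to ITGB8, read 498, 307 and 396, or 1.62-fold and 1.26-fold lower, and on it shMMSET#2 was the lowest array, whereas ITGB8 itself was lowest with shMMSET#4. ITGB2-AS1 read 72.4 with shMMSET#4 on its brighter probe set and was at the floor on the other arrays.

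A second RAP1A probe set read 85.3 with shLuc, under the floor with shMMSET#2 and 34060 with shMMSET#4, while a dimmer one read 109, 207 and 131, so that the very large value with shMMSET#4 stood on 2 of the 4 RAP1A probe sets.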
